A study of Mus musculus with 2 samples.

Results

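The genes described are 7 microRNA genes that lie in introns of a serotonin receptor gene and of a pair of TRPM channel genes and that are known for expression in the choroid plexus. They are Mir204 in Trpm3, Mir211 in Trpm1, and Mir764, Mir1912, Mir1264, Mir1298 and Mir448 in Htr2c. They were listed by gene symbol and host, with no threshold on a measured value but with earlier results of these data known, and make up 7 of the 2202 microRNA genes counted in each library. The data are 2 microRNA-seq libraries, which hold RNA shorter than 30 bases. They come from tissue labelled male adult left cerebral cortex of the strain 5xFAD/CAST, at 8 to 10 months of age. Both libraries belong to the same group, and no control group is analysed here. 5xFAD names a line of transgenic mice that deposit amyloid, and CAST an inbred strain of wild-mouse origin, but the labels leave unsaid whether the sampled tissue carried the transgenes. The replicates have separate tissue sample identifiers under a single donor identifier, so p-values and spreads given here measure only the difference between these samples, which may be technical. Levels are sense-strand counts scaled so that the reads assigned to microRNA genes add up to 1000000 (CPM), from 4929428 assigned reads in replicate 1 and 4441328 in replicate 2, so that a single read is worth 0.203 and 0.225 CPM. Errors written as ± are the SD of the 2 libraries (n = 2). Intervals are exact (Clopper-Pearson) 95% intervals that cover the counting error of reads only. The reads were not collapsed by molecular identifiers, so the intervals hold for reads and not for molecules.

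The choroid plexus is the epithelium that lines parts of the ventricles and secretes cerebrospinal fluid, and it expresses the serotonin receptor 5-HT2C, encoded by Htr2c, at high levels. Htr2c is also expressed in neurons. An intronic microRNA is cut from the transcript of its host gene as a hairpin, from which either arm can become the mature microRNA. Mature microRNAs recognise targets mainly through the seed, bases 2 to 8 from the 5′ end. Besides the choroid plexus, miR-204 is known from the retinal pigment epithelium, and miR-211 from melanocytes, where its host Trpm1 is a pigment cell gene. TRPM3 and TRPM1 are cation channels. A count covers a whole precursor gene and pools its arms, and host messenger RNAs and protein markers of the choroid plexus are not in these libraries.

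Mature sequences of the members are shown because the counts pool the arms and because the seed is the main part that recognises a target. RefSeq (GRCm38.p6, the assembly also called mm10) gave 12 mature sequences for the 7 members, written 5′ to 3′ with the seed in capitals. The members in Trpm3 and Trpm1 come first and those in Htr2c follow in their order along the gene.
miR-204-5p: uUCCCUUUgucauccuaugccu
miR-211-5p: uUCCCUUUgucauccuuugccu
miR-204-3p: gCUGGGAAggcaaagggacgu
miR-211-3p: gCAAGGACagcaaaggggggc
miR-764-5p: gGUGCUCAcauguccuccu
miR-764-3p: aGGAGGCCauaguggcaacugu
miR-1912-3p: cACAGAACaugcagugagaacu
miR-1264-3p: cAAAUCUUauuugagcaccugu
miR-1298-5p: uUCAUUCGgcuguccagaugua
miR-1298-3p: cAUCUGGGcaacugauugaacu
miR-448-5p: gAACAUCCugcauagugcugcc
miR-448-3p: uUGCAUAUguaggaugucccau

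The 12 sequences carry 11 distinct seeds, and miR-204-5p and miR-211-5p are the only members that share a seed. These 5p arms are identical over their first 16 bases and differ at a single base, A17U, counted from 1 at the 5′ end with the miR-204-5p base first. The 3p arms of the same genes differ at 7 of 21 bases and have different seeds. No Htr2c member shares a seed with another member. Among the 1738 mature sequences in the table, the seed of miR-204-5p and miR-211-5p is found in miR-7670-3p as well, whose gene Mir7670 had 2 reads in replicate 1 and 0 in replicate 2. The seed of miR-764-3p also occurs in miR-7062-5p (Mir7062, 9 and 10 reads), and that of miR-204-3p in miR-7684-5p (Mir7684, no read). miR-448-3p matches the neuronal miR-153-3p, and also miR-6335, at bases 2 to 7 but not at base 8. The same kind of match was found for miR-448-5p with miR-499-3p, miR-1298-5p with miR-12187-3p and miR-211-3p with miR-6385.

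The hairpins of Mir204 and Mir211 are shown with both mature arms in capitals, to show where the arms that share a seed lie in each precursor. Mir204 is at chr19:22750605-22750672 and Mir211 at chr7:64205806-64205911, both on the plus strand of mm10.
Mir204: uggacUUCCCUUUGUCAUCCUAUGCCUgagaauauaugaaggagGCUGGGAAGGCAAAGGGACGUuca
Mir211: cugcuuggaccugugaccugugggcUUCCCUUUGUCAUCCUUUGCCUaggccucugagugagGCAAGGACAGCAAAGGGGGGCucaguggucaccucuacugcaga

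No precursor of the 7 shares a stretch of 20 bases with another microRNA locus of the annotation, on either strand. Reads that map to several places in the genome are left out of the gene counts as a total of their own, and matches of the members outside annotated microRNA genes were not searched. A read of miR-204-5p or miR-211-5p that ends before base 17 cannot be told from the other gene's.

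Detection was taken as a minimum of 10 reads in both libraries, which 6 of the 7 members met and Mir1912 did not. Among all 2202 genes, 417 (18.9%) met the same rule. The members together took 0.184% of the assigned reads in replicate 1 and 0.0871% in replicate 2, or 1843 and 871 CPM. None of the 7 had a read on the opposite strand in either library. Most of the member reads came from a single gene of each host group, Mir204 and Mir1298.

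Mir204 was the most abundant member, with 5344 reads (1084 CPM, interval 1055 to 1114) in replicate 1 and 2454 reads (553 CPM, 531 to 575) in replicate 2. Its mean of 818 ± 376 CPM placed it at rank 104 of the 2202 genes. Mir211, its relative with the same 5p seed, had 300 reads (60.9 CPM, 54.2 to 68.1) and 239 reads (53.8 CPM, 47.2 to 61.1), a mean of 57.3 ± 4.98 CPM. The intervals of Mir211 overlapped between the libraries and those of Mir204 did not. Mir204 stood above Mir211 by 17.8-fold (15.9 to 20.1) in replicate 1 and 10.3-fold (8.99 to 11.8) in replicate 2, and it supplied 94.7% and 91.1% of the reads of the pair.

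Mir1298, the leading member of Htr2c, had 2791 reads (566 CPM, 545 to 588) in replicate 1 and 767 reads (173 CPM, 161 to 185) in replicate 2, a mean of 369 ± 278 CPM at rank 138. Mir1264 had 336 reads (68.2 CPM, 61.1 to 75.9) and 212 reads (47.7 CPM, 41.5 to 54.6). Mir448 had 206 reads (41.8 CPM, 36.3 to 47.9) and 105 reads (23.6 CPM, 19.3 to 28.6). All 3 were lower in replicate 2, with intervals that did not overlap between the libraries. Mir764 had 102 reads (20.7 CPM, 16.9 to 25.1) and 88 reads (19.8 CPM, 15.9 to 24.4), with overlapping intervals. Mir1912, the least abundant, had 8 reads (1.62 CPM, 0.701 to 3.20) and 4 reads (0.901 CPM, 0.245 to 2.31), also overlapping.

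**Figure D1:**
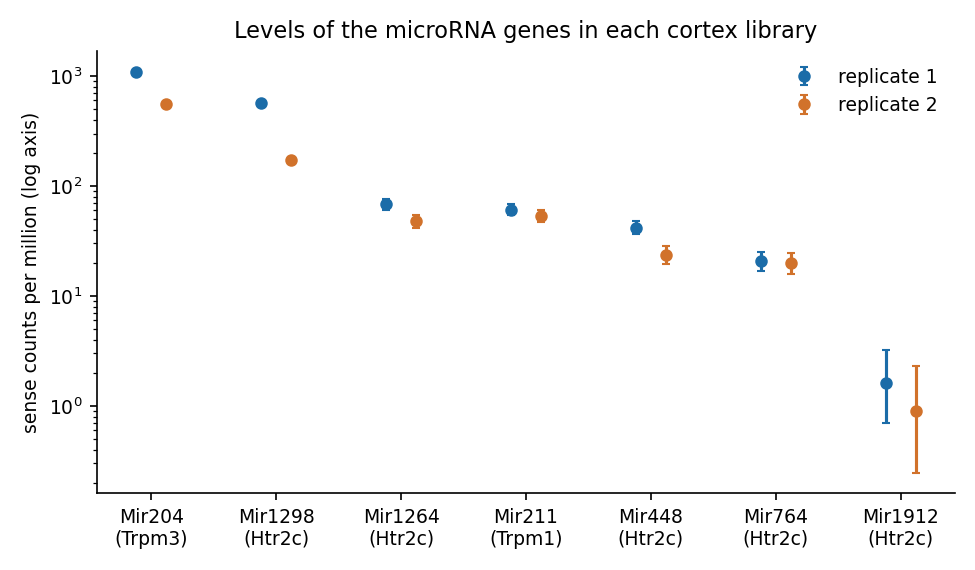
Sense-strand CPM on a log axis for the 7 genes, ordered by mean level with the host gene in brackets; each point is a library and bars are exact 95% intervals of counting error. Mir204 lies at 1084 and 553 CPM and Mir1298 at 566 and 173 CPM, and only Mir1912 lies below 10 CPM.

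In order of mean level the members were Mir204, Mir1298, Mir1264, Mir211, Mir448, Mir764 and Mir1912. Some neighbours in this order were not separated by the spread of the libraries. Mir204 in replicate 2 was close to Mir1298 in replicate 1, although within each library Mir204 was higher, by 1.91-fold (1.83 to 2.01) and 3.20-fold (2.95 to 3.47). Mir1264 was 1.12-fold of Mir211 in replicate 1 (0.956 to 1.31) and 0.887-fold in replicate 2 (0.734 to 1.07), so their order turned between the libraries. Mir448 exceeded Mir764 by 2.02-fold (1.59 to 2.59) in replicate 1, and in replicate 2 the ratio of 1.19 had an interval of 0.890 to 1.60. Mir1298 was 8.31-fold above Mir1264 in replicate 1 and 3.62-fold above it in replicate 2, and Mir764 was 12.8-fold and 22.0-fold above Mir1912. Mature members are 19 to 22 bases long, so reads were not scaled by length, and how efficiently each sequence was ligated and amplified was not measured. Differences between genes are therefore differences in reads.

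All 7 members lie on the strand of their host and overlap no annotated exon of it. In the principal transcripts, Mir204 lies in intron 6 of Trpm3, which is 33.5 kb long, and Mir211 in intron 6 of Trpm1, which is 3.68 kb long. Htr2c extends over 235 kb of the X chromosome (chrX:146962513-147197277, plus strand). Mir764, Mir1912, Mir1264 and Mir1298 sit in its intron 3, at 39.7, 46.9, 48.1 and 102 kb from the start of the gene, and Mir448 sits in intron 5 at 196 kb. Mir1912 and Mir1264 are 1.07 kb apart, whereas Mir1298 is 54.2 kb downstream of Mir1264 and 93.2 kb upstream of Mir448. The closest neighbours, Mir1912 and Mir1264, differed widely in reads, at 8 against 336 in replicate 1 and 4 against 212 in replicate 2.

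The annotation places other microRNA genes in these hosts. Htr2c holds Gm22650 in intron 3, at chrX:146999405-146999509 upstream of Mir764, and Gm24627 in intron 5, both on the host's strand. Gm22650 had 21 and 19 reads, or 4.26 and 4.28 CPM, which is above Mir1912 in both libraries. Its interval for the log2 ratio between the libraries was -0.97 to 0.97, with an adjusted p = 1 in the exact binomial test described below. Gm24627 had no read in either library, and neither had Mir6416, on the opposite strand of Trpm1. No read allows a level of up to 0.609 CPM (replicate 1) or 0.675 CPM (replicate 2), the worth of 3 reads.

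**Figure D2:**
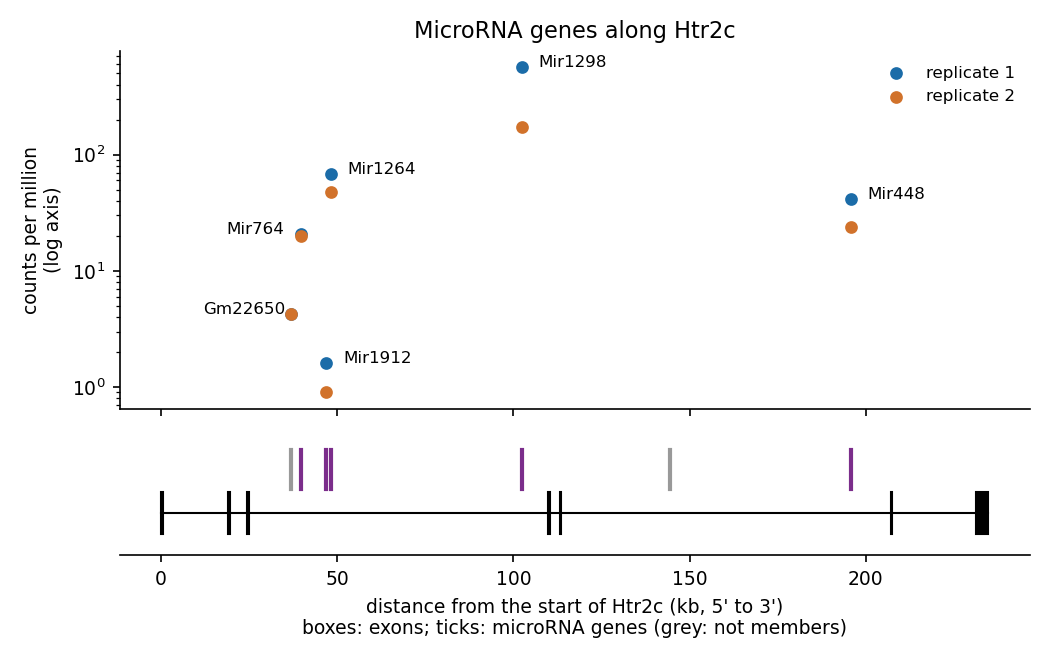
CPM on a log axis in each library (upper panel) for the microRNA genes along Htr2c, against distance from the start of the host in kb; the lower panel shows the exons of the principal transcript as boxes and the microRNA genes as ticks, grey for those that are not members. Mir1298, at 102 kb, is the highest in both libraries, and Gm24627, with no read, has a tick and no point; the points of Gm22650 coincide.

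The 5 Htr2c members gave 37.9% (36.9 to 38.9%) of the member reads in replicate 1 and 30.4% (28.9 to 31.9%) in replicate 2. Their division among the 5 genes differed between the libraries. Mir1298 took 81.1% (79.7 to 82.4%) of the Htr2c member reads in replicate 1 and 65.2% (62.4 to 67.9%) in replicate 2. Mir1264 took 9.76% (8.79 to 10.8%) and 18.0% (15.9 to 20.3%), Mir764 took 2.96% (2.42 to 3.58%) and 7.48% (6.04 to 9.14%), and Mir448 took 5.98% (5.21 to 6.83%) and 8.93% (7.36 to 10.7%). For these 4 genes the intervals of the libraries did not overlap. The shares are parts of the same whole, so these are not separate differences. Mir1264 (68.2 and 47.7 CPM), Mir764 (20.7 and 19.8 CPM) and Mir448 (41.8 and 23.6 CPM) had higher shares in replicate 2 but not higher CPM. Mir1912 held 0.232% (0.100 to 0.457%) and 0.340% (0.0928 to 0.869%), with overlapping intervals.

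**Figure D3:**
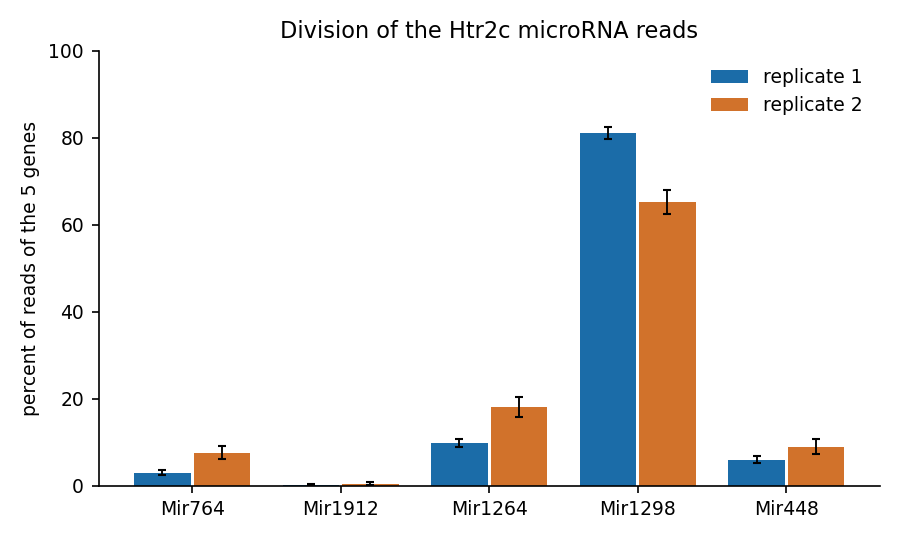
Percent of the reads of the 5 Htr2c members that came from each gene in each library, with exact 95% intervals of counting error; genes are in their order along the host. Mir1298 holds 81.1% in replicate 1 and 65.2% in replicate 2. The other 4 genes each hold a higher percentage in replicate 2, as parts of the same whole, but not a higher CPM. For Mir1912 the intervals of the libraries overlap.

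Each detected gene's reads in the 2 libraries were set against the library totals in a two-sided exact binomial test, and p-values were adjusted by Benjamini-Hochberg across all 417. The test compares the reads of these libraries and not conditions, and it holds counting error alone, so that 59.2% of all tested genes passed the threshold of 0.05, 34.5% as lower in replicate 2 and 24.7% as higher. Of the 6 members tested, 4 were lower in replicate 2, none was higher and 2 did not pass. The median log2 ratio of replicate 2 to replicate 1 was -0.67 over the 6 members and -0.05 over all 417 genes. All 6 ratios were below 0, as were 53.5% of those of all tested genes. Mir764, Mir1264, Mir1298 and Mir448 share the host Htr2c, so the 6 ratios need not be independent.

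Mir1298 was lower in replicate 2 by the widest margin among the members, with a log2 ratio of -1.71 (interval -1.83 to -1.60; adjusted p = 6.30e-223, exact binomial test), or 3.28-fold. Including Mir1298 itself, 7 of the 417 tested genes (1.68%) had a log2 ratio at or below that of Mir1298. It was the only member called with at least a 2-fold difference, which 4.80% of tested genes met in the lower direction. Mir204 followed with -0.97 (-1.04 to -0.90; adjusted p = 1.22e-178, exact binomial test), and 24 genes (5.76%) were at or below it. Mir448 had a log2 ratio of -0.82 (-1.17 to -0.48) and Mir1264 of -0.51 (-0.77 to -0.26), with adjusted p = 2.90e-06 and 0.000101 in the same exact test. Mir211 and Mir764 did not pass, with -0.18 (-0.43 to 0.07; adjusted p = 0.245) and -0.06 (-0.49 to 0.36; adjusted p = 0.834) in the exact binomial test. Mir1912 had too few reads to be tested, and its log2 ratio of -0.85 had an interval of -3.03 to 1.05.

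**Figure D4:**
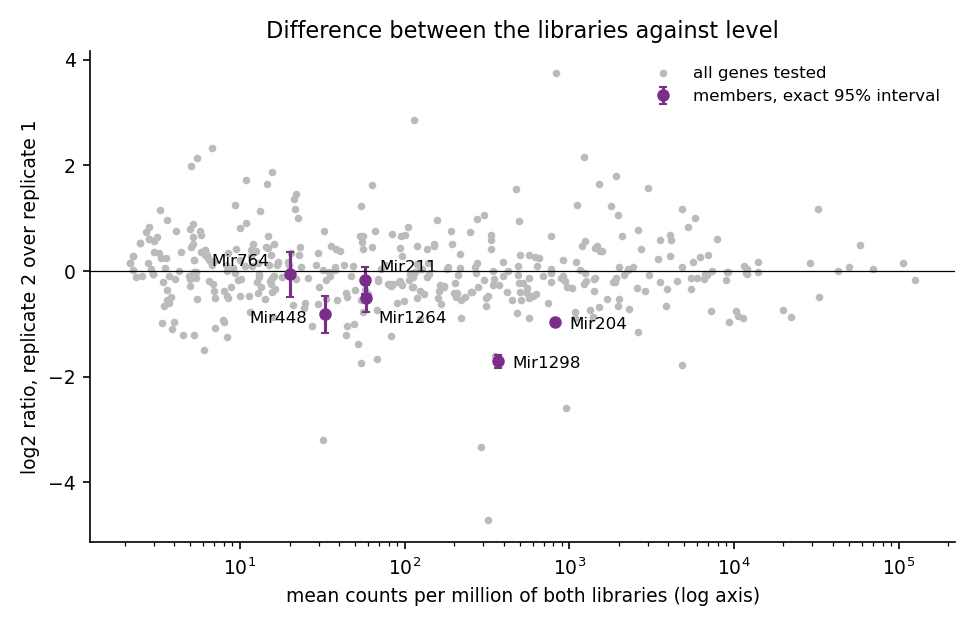
Log2 ratio of replicate 2 over replicate 1 against the mean CPM of both libraries (log axis); grey points are all 417 genes tested and purple points the 6 members tested, with exact 95% intervals. Mir1298 at -1.71 and Mir204 at -0.97 lie below most genes of their level, while the intervals of Mir211 and Mir764 include 0.

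Members of the same host did not differ by the same amount. The intervals of Mir1298 lay wholly below those of Mir448, Mir1264 and Mir764, its neighbours in Htr2c. Without Mir1298 the log2 ratio of the summed reads of the Htr2c members was -0.52 (-0.70 to -0.34), against -1.40 (-1.50 to -1.30) with it. The summed Htr2c members stood at 698 and 265 CPM, and the summed Mir204 and Mir211 at 1145 and 606 CPM, a log2 ratio of -0.92 (-0.98 to -0.85). In bulk tissue, fewer cells of a type, less RNA per cell and a technical difference between the libraries cannot be told apart.

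MicroRNAs named for other cells that border or enter the ventricles and cortex did not all differ between the libraries in the same direction as the members. The list for ciliated cells and ependyma, the cells that line the ventricles, had sums of 309 and 776 CPM in replicates 1 and 2. Of its 5 genes 3 were tested, with Mir34c (242 and 711 CPM) and Mir449a (30.0 and 41.4 CPM) higher in replicate 2 and Mir34b (36.1 and 23.4 CPM) lower, while Mir449c had 3 reads in each library and Mir449b none. In the epithelial list 5 of 7 tested genes were lower in replicate 2 and 1 higher, and its sum was 471 and 354 CPM. Its most abundant genes were Mir429 (109 and 105 CPM, not past the threshold), Mir183 (92.1 and 77.7 CPM) and Mir200b (116 and 49.5 CPM).

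The red blood cell list had sums of 602 and 88.5 CPM, a wider gap than that of the members' sum. Mir451a, the main microRNA of red cells, was lower in replicate 2 with a log2 ratio of -3.34 and Mir144 with -3.20, whereas Mir486 was higher with 1.00. The vascular list differed little, at 20418 and 21812 CPM in its sum, with Mir143 lower and Mir126a and Mir145a higher in replicate 2, with log2 ratios between -0.07 and 0.17. The neuronal list had 2 of 4 genes lower (Mir137 and Mir153) and 2 higher (Mir132 and Mir212). In the astroglial list Mir23b and Mir29a were lower, with log2 ratios of -0.75 and -0.02. Its other genes, Mir27b and Mir31, were higher, with 0.47 and 3.75, and the sum of the list was 40510 and 32066.5 CPM. Both oligodendrocyte genes, Mir338 and Mir219a-2, were higher. Of all 417 tested genes, 34.5% were lower and 24.7% higher in replicate 2. All 4 neuronal genes were detected in this tissue labelled cortex. Mir132 (32190 ± 17689 CPM) and Mir137 (9344 ± 4234 CPM) exceeded every member in both libraries, whereas Mir153 (1643 and 272 CPM) and Mir212 (509 and 630 CPM) each stood below Mir204 in a single library. The part of the red blood cell, ependymal and epithelial differences in the members' difference was not tested.

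**Figure D5:**
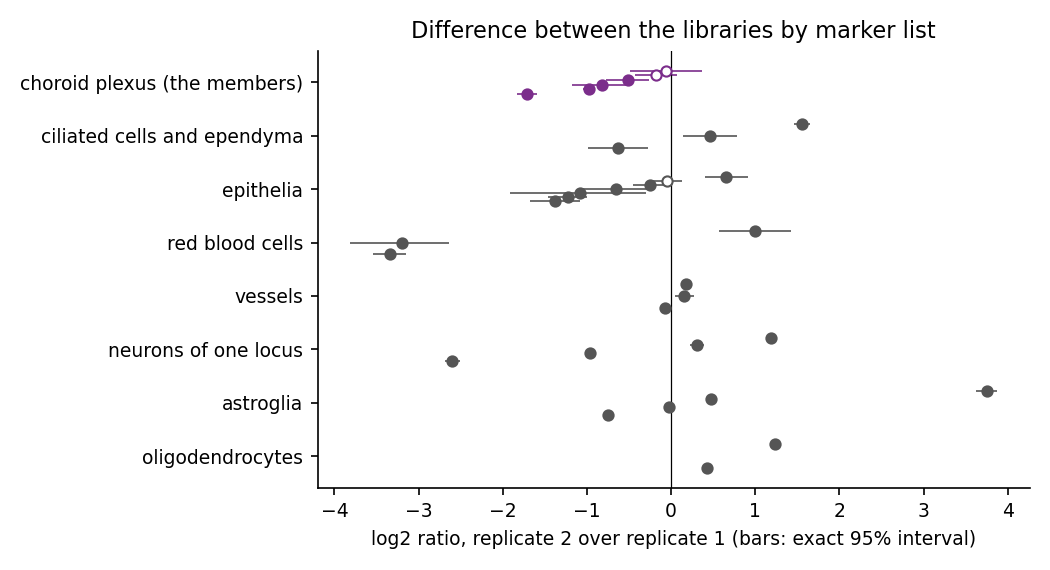
Log2 ratio of replicate 2 over replicate 1 for each tested gene of 8 marker lists, with exact 95% intervals; filled points passed an adjusted p of 0.05 and open points did not. The tested choroid plexus members lie between -1.71 and -0.06. Red blood cell genes range from -3.34 to 1.00, and the ciliated cell genes lie on both sides of 0, up to 1.55. The highest ratio of the astroglial genes is 3.75.

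The 3 other genes with a log2 ratio nearest to the members' median, among 265 that had 100 reads or more in both libraries, were Mir30e (-0.67), Mir376c (-0.67) and Mir708 (-0.66). Mir30e stood at 4735 and 2978 CPM, Mir376c at 381 and 240 CPM and Mir708 at 2406 and 1524 CPM. This likeness rests on 2 libraries and is a description.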

How the data were processed

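Values are the raw counts per microRNA gene that the authors deposited for each of the 2 libraries, made with mm10 and GENCODE M21, per the notes beside the deposited files. The sources used here name no aligner or counter. The sense column was read from the layout of the table. Of all reads, 30.1% in replicate 1 and 26.1% in replicate 2 were assigned to genes, and 25.6% and 34.3% were unmapped, 38.5% and 33.0% mapped to several places and 5.82% and 6.54% outside microRNA genes; these stayed out of library sizes and tests.

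CPM, exact binomial intervals and the exact binomial test were computed with SciPy 1.17.1 (Python 3.11.15), with Benjamini-Hochberg adjustment over all genes with at least 10 counts in each library. Without a second group no count model was fitted. The test was checked on simulated counts that held counting error alone, so the check does not cover further spread between libraries. Alternatives were the counts without regard to strand, TMM factors (edgeR 4.0.16, R 4.3.3), size factors of DESeq2 1.42.0, other count minimums, CPM of all reads and each library alone. Symbols, coordinates (counted from 1) and introns are those of GENCODE M21, with the widest principal transcript of each host. Mature sequences were found in RefSeq for 7 of 7 members and hairpins for 6.

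The members and marker lists were chosen with earlier results of these data known. Named were all members, other microRNA genes in the same hosts, up to 3 leading genes of each list and the 3 genes nearest in log2 ratio; other list genes were picked with their values in view.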

Additional observations from a re-analysis of the deposited data

How the results depend on the processing

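Of 85 values recomputed under alternatives, 78 kept their direction, their side of the threshold or stayed within the SD of the libraries. None turned in direction or changed its call. Many of the 78 could not come out otherwise, so their number is no measure of stability. Either library alone always lies within the SD of the 2 around their mean. Scaling factors leave the Htr2c share as it is, and other count minimums change only the adjusted p of a log2 ratio. The 4 members called lower in replicate 2 stayed 4 under the counts without regard to strand, TMM factors, DESeq2 size factors, no filter and a minimum of 50 counts, and 6 members were detected with a minimum of 5, 10 or 50. Values that moved are levels: as CPM of all reads, Mir204 stood at 235.1, Mir211 at 16.2, Mir764 at 5.70, Mir1912 at 0.362, Mir1264 at 16.5 and Mir448 at 9.37 CPM, because unassigned reads enter the total. Mir1298 fell as well, from 369 to 107.6 CPM, and was not counted as moved only because its SD was 278 CPM. Mir764, with an SD of 0.621 CPM, also moved to 21.8 CPM in the counts without regard to strand, where fewer reads are assigned. Each library alone gave 553 to 1084 CPM for Mir204 and 173 to 566 CPM for Mir1298, and an Htr2c share of 30.4 to 37.9%. Calls in all genes were 144 lower and 103 higher, and 131 and 116 under TMM factors. With 8 and 4 reads, depth limits Mir1912. No paired analysis was possible because there is a single group.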

Other observations

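Mir1298 was also among the more abundant microRNA genes of the X chromosome, of which males carry a single copy. Of 142 annotated X-linked genes, 38 were detected, and Mir1298 ranked at position 11 by mean CPM, ahead of Mir1264 at 23, Mir448 at 24, Mir764 at 26 and Mir1912 at 41. Of the 38, 12 were lower and 9 higher in replicate 2 in the exact binomial test. Among all 417 tested genes, 34.5% were lower and 24.7% higher. The median log2 ratio was -0.05 over the 38, against -0.05 over all 417 genes. The Htr2c members belong to these counts.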
